A study of Homo sapiens with 6 samples.

Results

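Expression of 10 core histone genes, 5 for histone H2A and 5 for histone H2B, was compared between ES2 cells given a control antisense oligonucleotide and ES2 cells given one against RUNX1-IT1. They were chosen by symbol, in the older HIST naming, and all 10 were found among the 771 entries with a gene symbol, out of 1113 entries in all. ES2 is a human ovarian cancer cell line, and an antisense oligonucleotide (ASO) is a short synthetic strand used to lower the RNA it pairs with. RUNX1-IT1 is an intronic long non-coding RNA of the RUNX1 locus. The design had 3 control ASO and 3 RUNX1-IT1 ASO libraries, all from 1 cell line in the same medium. The labels give no ASO sequence, dose or time, and do not say whether replicates were separate cultures, so p-values measure only the spread between these libraries.

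Values are CPM, a gene's reads scaled to a common library total. Only part of each library is held in the tables, 1.02 to 1.11% of its CPM for control ASO and 0.363 to 0.389% for RUNX1-IT1 ASO. Group means differed at least 2-fold for 1112 of the 1113 entries, so the tables appear to hold genes already selected on these same samples. The p-values of listed genes were computed on the samples that put the genes in the tables, and so do not test their fall anew. The spacing of low values puts 1 read at 0.0471 to 0.0586 CPM and the library totals at about 17100000 to 21200000 reads. The tables have no entry for RUNX1-IT1, whose level was not analysed here. Of 11 markers of ovarian cancer lines 1 was listed, PAX8, at 6.55 to 7.97 CPM in control ASO libraries and 2.31 to 3.48 CPM in RUNX1-IT1 ASO libraries. Of 5 immune markers 1 was listed, ITGAM, at 1.62 to 1.84 and 0.059 to 0.214 CPM, and of 3 endothelial markers none was. The part of these cells' markers in the histone results was not tested.

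Histones H2A and H2B pair into dimers, and a pair of these dimers joins the H3-H4 tetramer to form the core that DNA wraps around in the nucleosome. Most H2A and H2B genes are replication-dependent: they lie in the HIST1 cluster on chromosome 6 or the smaller HIST2 cluster on chromosome 1 and are transcribed mainly in S phase. Their mRNAs usually end just after a short stem-loop, which the stem-loop binding protein recognises, and not in a poly(A) tail. Some of these genes also give longer polyadenylated mRNAs, which differentiated or resting cells are known to use. H2AFJ differs from the others: it codes for the H2A variant H2A.J, lies outside the clusters on chromosome 12, and gives polyadenylated mRNA.

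The stem-loops are shown first because they separate the usual histone 3′ ends from polyadenylated ones. The histone stem-loop pattern, which fixes most of the bases that the sites below share, was searched on the sense strand of GENCODE release 29 transcripts, and 0.0619% of all 206694 transcripts hold it. It was found in 7 of the 10 genes. For each gene a site is printed 5′ to 3′ as DNA letters on GRCh38. The stem-loop is in capitals and a few neighbouring bases are in lower case.
HIST1H2AC: ccaaaGGCTCTTTTCAGAGCCcccctaccg
HIST1H2AG: ccaacGGCTCTTTTCAGGGCCacccacgtc
HIST2H2AA3: caaaaGGCTCTTTTCAGAGCCacccacgtt
HIST1H2BD: ccaaaGGCTCTTTTAAGAGCCacgcatgtt
HIST1H2BN: ccaaaGGCTCTTTTCAGAGCCactcagtct
HIST2H2BE: ccaaaGGCTCTTTTCAGAGCCacccaccta
HIST2H2BF: ccaaaGGCTCTTTTCAGAGCCacttcagta

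In capitals, 5 of the 7 stem-loops are identical. Counted from 1 at the first capital base, and relative to HIST2H2BE, HIST1H2AG carries A13G and HIST1H2BD carries C10A. The H2A stem-loops lie at chr6:26124669-26124684 (HIST1H2AC), chr6:27133515-27133530 (HIST1H2AG) and chr1:149842223-149842238 (HIST2H2AA3). Those of the H2B genes lie at chr6:26158587-26158602 (HIST1H2BD), chr6:27839090-27839105 (HIST1H2BN), chr1:149886188-149886203 (HIST2H2BE) and chr1:149811885-149811900 (HIST2H2BF). These sites start 36 to 67 bases after the stop codon. HIST1H2BN has another site that is not printed, at chr6:27865778-27865793 in a spliced protein-coding form. Its capitals would be the same, and it starts 30 bases after the stop codon. The annotated transcript of HIST1H2AM ends at the stop codon, as does 1 form of HIST1H2BJ, so the search did not reach past it there. A spliced HIST1H2BJ form of 950 bases runs 572 bases past its coding part, and the pattern was not found in it. In H2AFJ the pattern was not found in these letters.

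Most of the 10 genes also have an annotated form that runs on past the stem-loop. A protein-coding transcript with the poly(A) hexamer AATAAA or ATTAAA within 40 bases of its 3′ end was annotated for 9 of them, the exception being HIST1H2AM. HIST2H2BE, HIST1H2AG and HIST2H2BF run 1729, 1761 and 1479 bases past the stem-loop without splicing. HIST1H2AC reaches its hexamer through a second exon, and HIST1H2BD and HIST1H2BJ have spliced forms as well. HIST2H2AA3 ends only 35 bases past its stem-loop, and the unspliced form of HIST1H2BD 39 bases past it, each with a hexamer in that short stretch. Per the labels the libraries were mRNA-focused, but whether poly(A) tails were captured is not stated in the sources used here. CPM values do not show which form the reads came from.

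**Figure D1:**
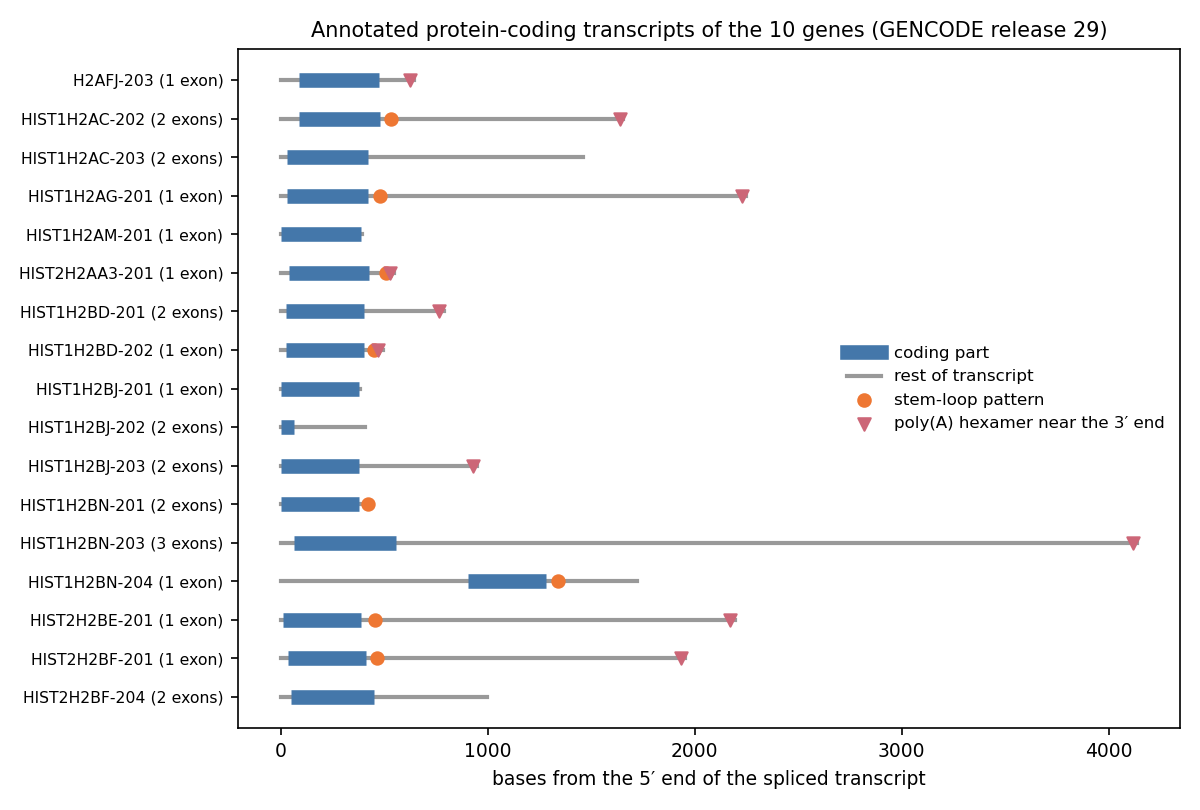
Annotated protein-coding transcripts of the 10 genes, drawn to scale in bases from the 5′ end of the spliced transcript, with the coding part, the stem-loop pattern and any poly(A) hexamer within 40 bases of the 3′ end. Stem-loops sit just after the coding part in 7 genes, and 9 genes have a form that ends near a hexamer.

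Promoters are shown for 4 genes that run from the smallest to the largest fold and for HIST1H2BJ and HIST1H2AG, a divergent pair with both genes listed and 292 bases between their GENCODE starts. RefSeq promoter windows on GRCh38.p14 (250 bases before to 50 after each start) were matched for all 10 genes. They were searched on both strands for 3 motifs. The CCAAT box was found in all 10 windows, against 35.7% of 27305 promoters. The TATA box, searched as TATAAA, was found in 7 of the 10, against 12% of promoters. The octamer ATTTGCAT, known from H2B promoters, was found in 6 of the 10, against 1.8% of promoters. The windows of HIST1H2AG and HIST1H2BJ overlap and hold the same octamer, so the 6 windows hold 5 separate octamers, and matches of the other motifs in that overlap are also counted for both genes. Matches to any of these are in capitals below, in the direction of the gene, and end at the base before the start. In these stretches matches of different motifs do not overlap, but opposite-strand TATAAA matches can overlap each other.
HIST2H2BE: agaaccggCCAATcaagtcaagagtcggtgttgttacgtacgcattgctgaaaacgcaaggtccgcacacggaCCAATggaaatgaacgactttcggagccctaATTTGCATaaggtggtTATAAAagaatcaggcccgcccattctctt
HIST2H2BF: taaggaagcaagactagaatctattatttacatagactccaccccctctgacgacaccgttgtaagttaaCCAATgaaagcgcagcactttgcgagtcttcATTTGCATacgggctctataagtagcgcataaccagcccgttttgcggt
HIST1H2BD: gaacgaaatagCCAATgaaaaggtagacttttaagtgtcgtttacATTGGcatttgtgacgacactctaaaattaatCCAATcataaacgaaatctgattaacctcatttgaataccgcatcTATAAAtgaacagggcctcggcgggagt
H2AFJ: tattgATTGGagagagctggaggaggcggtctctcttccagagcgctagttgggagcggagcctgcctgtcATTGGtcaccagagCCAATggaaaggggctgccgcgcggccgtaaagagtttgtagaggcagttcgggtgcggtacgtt

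These stretches are chr1:149886683-149886832 (minus strand), chr1:149812371-149812520 (minus), chr6:26157971-26158120 (plus) and chr12:14774255-14774404 (plus). The octamer was found in 3 H2A and 3 H2B windows. In HIST2H2BE, HIST2H2BF and HIST1H2BJ the octamer runs in the direction of the gene and begins 46, 49 and 47 bases before the start. In HIST1H2AM the octamer also runs in the direction of the gene, from 98 bases before the start. In HIST1H2AC and HIST1H2AG the octamer is on the opposite strand, from 130 and 208 bases before the start. No match to it was found in the H2AFJ, HIST1H2BD, HIST1H2BN or HIST2H2AA3 windows. HIST1H2BJ and HIST1H2AG start back to back, and the interval between their RefSeq starts, chr6:27132796-27133042, is printed in the direction of HIST1H2AG.
HIST1H2BJ-HIST1H2AG: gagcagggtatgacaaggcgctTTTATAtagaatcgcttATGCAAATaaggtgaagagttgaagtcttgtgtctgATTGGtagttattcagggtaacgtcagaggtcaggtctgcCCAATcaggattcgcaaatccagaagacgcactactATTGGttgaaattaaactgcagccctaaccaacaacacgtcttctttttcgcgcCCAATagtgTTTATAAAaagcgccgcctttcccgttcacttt

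Each of the 10 genes was lower in all 3 RUNX1-IT1 ASO libraries than in any control ASO library, as were 95.7% of the 771 named entries. The count therefore says nothing particular about histones. Folds of the group means ran from 2.16 for H2AFJ to 5.46 for HIST2H2BF. The median fold was 3.35 over the 10 genes and 3.25 over all named entries. Summed over the 10 genes, the level was 108, 103 and 115 CPM in the control ASO libraries and 39.7, 45.4 and 46.5 CPM in those given the RUNX1-IT1 ASO. In bulk samples like these, fewer cells making a transcript and less transcript per cell cannot be told apart.

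**Figure D2:**
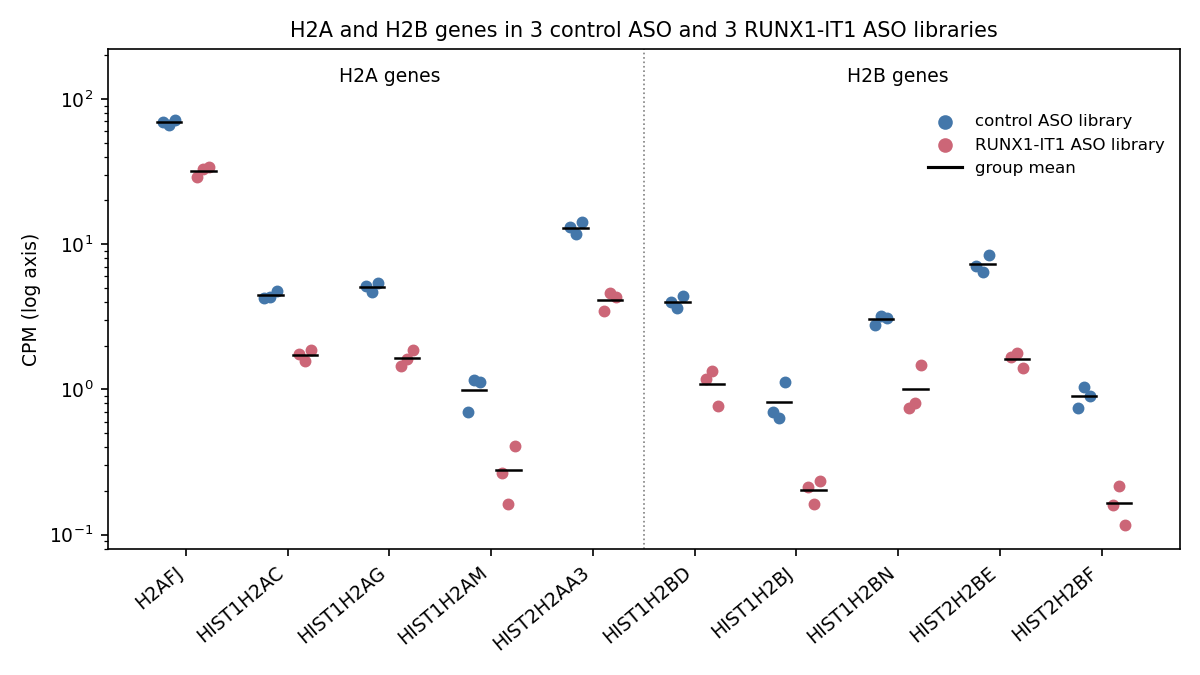
CPM of each gene on a log axis, with 1 point per library and a bar at each group mean (n = 3), H2A genes on the left and H2B genes on the right. The groups do not overlap for any of the 10 genes, and H2AFJ stands far above the rest in CPM.

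Among H2A genes, H2AFJ was the most abundant by CPM and had the smallest fold. It stood at 69.3, 66.0 and 72.1 CPM in control ASO replicates 1 to 3, and at 28.8, 33.2 and 34.0 CPM in RUNX1-IT1 ASO replicates 1 to 3. Group means were 69.1 ± 3.02 and 32.0 ± 2.79 CPM (SD, n = 3 each), and the groups stood well apart. H2AFJ lies at chr12:14774383-14778002 in GENCODE release 29, and none of its 50-base stretches occur in transcripts of another gene. On the log2(CPM + 1) scale, which understates changes of low genes, it fell by 1.09 ± 0.09 (limma SE, adjusted p = 8.23e-08).

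HIST2H2AA3, a replication-dependent H2A gene of the HIST2 cluster (chr1:149842188-149842736), stood at 13.1, 11.8 and 14.1 CPM in control ASO libraries. It was at 3.48, 4.62 and 4.34 CPM in RUNX1-IT1 ASO libraries, 3.13-fold lower by the means of 13.0 ± 1.19 and 4.15 ± 0.597 CPM. The change was -1.45 ± 0.12 (limma, adjusted p = 1.13e-07). Its annotated transcript of 549 bases is contained whole in that of its copy HIST2H2AA4, which has no entry of its own, so its reads cannot be assigned to 1 of these copies. How such reads were placed is not stated in the labels. For the nearby copies HIST2H4A and HIST2H4B, control ASO replicates 1 to 3 gave 21.8, 2.43 and 13.4 CPM for the first and 0, 16.6 and 6.64 CPM for the second. Their sum was steadier, at 19.1 to 21.8 CPM in control ASO libraries.

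HIST1H2AG, in the HIST1 cluster at chr6:27133042-27135291, read 5.18, 4.69 and 5.42 CPM in control ASO libraries and 1.44, 1.61 and 1.88 CPM in RUNX1-IT1 ASO libraries. It was 3.10-fold lower, a change of -1.21 ± 0.12 (limma, adjusted p = 7.4e-07). HIST1H2AC (chr6:26124145-26139116), a cluster gene known to give polyadenylated mRNA too, read 4.24, 4.34 and 4.76 CPM against 1.76, 1.56 and 1.88 CPM. Its fold of 2.57 was the smallest among the 9 cluster genes, with a change of -0.995 ± 0.120 (limma, adjusted p = 3.62e-06). Neither gene shared more than 4.36% of its 50-base stretches with transcripts of other genes.

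HIST1H2AM (chr6:27892757-27893149) was low, at 0.698, 1.16 and 1.13 CPM in control ASO libraries and 0.267, 0.161 and 0.41 CPM in RUNX1-IT1 ASO libraries. With a mean under 1 CPM it was not tested. The spacing of values puts it at 58 reads over the 3 control ASO libraries and 15 over the 3 RUNX1-IT1 ASO libraries, a ratio of 3.59 with an exact 95% interval of 2.01 to 6.82. This interval, like the others given for summed reads, covers counting error only. Of its 50-base stretches 86.3% also occur in annotated transcripts of HIST1H3J, which overlaps it on the same strand.

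All 5 H2B genes were at least 3-fold lower by their means, against 56.7% of the 771 named entries and 3 of the 5 H2A genes. HIST1H2BN passed this cutoff narrowly, at 3.01. The 95% counting intervals of HIST1H2BD, HIST1H2BJ, HIST1H2BN and HIST2H2BF reach below 3, with lower ends of 2.74, 2.12, 2.23 and 2.62. Over the 5 H2B genes the median fold was 4.05, and over the 5 H2A genes 3.10. On the log2(CPM + 1) scale, median changes of the tested genes were -1.26 for H2B and -1.15 for H2A. This order turned with no filter on low values (-1.02 and -1.09) and without RUNX1-IT1 ASO replicate 3 (-1.18 and -1.20). With no filter at a pseudocount of 0.1 CPM the medians were -1.81 for H2B and -1.55 for H2A. HIST2H2BE, a HIST2 gene with a long polyadenylated form (chr1:149884459-149886652), stood at 7.03, 6.43 and 8.39 CPM in control ASO libraries and 1.66, 1.77 and 1.41 CPM in RUNX1-IT1 ASO libraries. Its lowest control ASO library was 3.62 times its highest RUNX1-IT1 ASO library, the widest gap of the 10 genes. Means were 7.28 ± 1.00 and 1.61 ± 0.188 CPM, 4.51-fold apart, and the change was -1.66 ± 0.13 (limma, adjusted p = 5.84e-08).

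HIST1H2BD, at chr6:26158146-26171349, has a stem-loop form and a spliced polyadenylated form. It read 3.99, 3.65 and 4.38 CPM in control ASO libraries and 1.18, 1.34 and 0.762 CPM in RUNX1-IT1 ASO libraries, with replicate 3 the lowest of these. It was 3.66-fold lower, a change of -1.26 ± 0.14 (limma, adjusted p = 1.65e-06). Its exons overlap an antisense gene, AL353759.1, and reads of the pair cannot be told apart if counting did not use strand.

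HIST1H2BN (chr6:27837760-27865798) read 2.79, 3.19 and 3.11 CPM in control ASO libraries and 0.749, 0.807 and 1.46 CPM in RUNX1-IT1 ASO libraries. RUNX1-IT1 ASO replicate 3 lay well above replicates 1 and 2, though still below every control ASO library. The change was -1.02 ± 0.15 (limma, adjusted p = 2.05e-05), 3.01-fold by the means. Its annotated exons overlap HIST1H2AK on the opposite strand and HIST1H2AL on the same strand.

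The remaining H2B genes were too low to test. HIST1H2BJ (chr6:27125897-27132750), the divergent partner of HIST1H2AG, read 0.698, 0.637 and 1.13 CPM in control ASO libraries and 0.214, 0.161 and 0.234 CPM in RUNX1-IT1 ASO libraries. These values correspond to 49 and 11 reads in all, a ratio of 4.14 with an exact 95% interval of 2.12 to 8.82. HIST2H2BF (chr1:149782689-149812373) read 0.747, 1.04 and 0.895 CPM against 0.16, 0.215 and 0.117 CPM, or 52 and 9 reads. Its ratio of summed reads was 5.36, with an exact 95% interval of 2.62 to 12.4, the widest of the 10 genes. RUNX1-IT1 ASO libraries held 2 to 4 reads of HIST2H2BF each, close to a floor set here at 3 reads. In these libraries 3 reads correspond to 0.160 to 0.176 CPM. Its exons overlap FCGR1A on the opposite strand, and 26.9% of its 50-base stretches occur in transcripts of other genes.

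**Figure D3:**
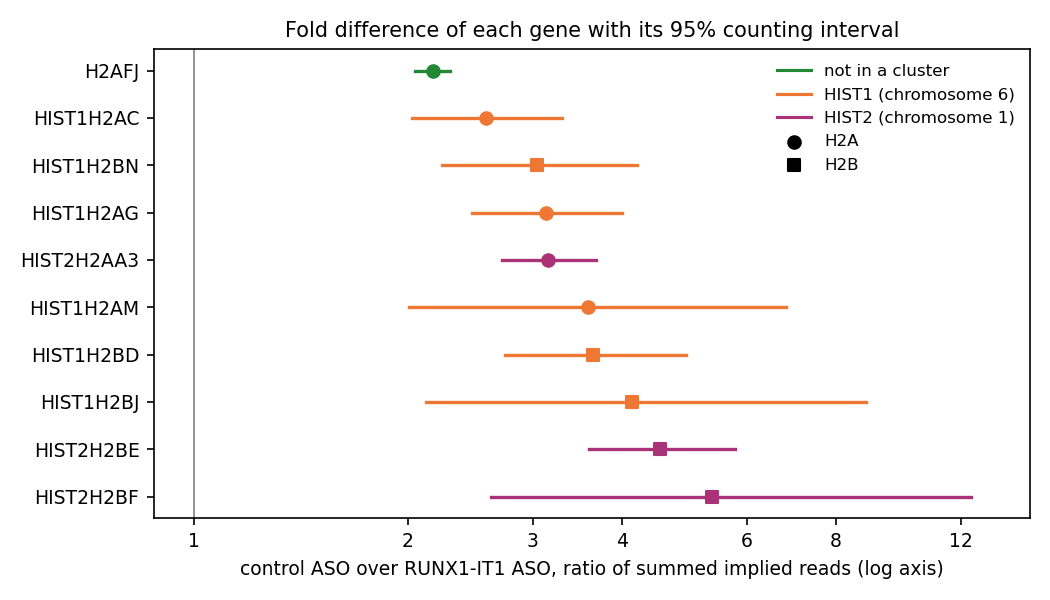
Ratio of summed implied reads, control ASO over RUNX1-IT1 ASO, on a log axis, with exact 95% intervals that cover counting error only. The interval of H2AFJ, 2.05 to 2.30, lies below those of HIST1H2AG, HIST2H2AA3, HIST1H2BD, HIST2H2BE and HIST2H2BF, and the 3 genes with a mean under 1 CPM have the widest intervals.

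Levels can be compared between genes only per length. Per kilobase of merged annotated exons, HIST2H2AA3 and H2AFJ led in control ASO libraries, at 23.6 ± 2.17 and 20.6 ± 0.901 CPM per kb. HIST1H2BD followed at 4.60 ± 0.422, HIST2H2BE at 3.32 ± 0.458 and HIST1H2AC at 2.67 ± 0.166. HIST1H2AM and HIST1H2AG, at 2.53 ± 0.657 and 2.27 ± 0.165, did not stand apart from HIST1H2AC beyond their spread in the first case and lay just below it in the second. HIST1H2BJ, HIST1H2BN and HIST2H2BF were under 1 CPM per kb. The value of HIST2H2AA3 may hold reads of its copy HIST2H2AA4 over the length of 1 gene, so its place relative to H2AFJ is uncertain. Short forms give more CPM per kb than the merged length shows, so this order holds only for the merged annotated lengths. H2AFJ has 3356 merged bases but a protein-coding transcript of 644 bases. HIST1H2BN has 5477 merged bases and a protein-coding form of 432 bases.

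Read against all tested genes, the 7 histone genes whose mean reached 1 CPM lay near the middle as a list. All 7 were called lower (limma on log2(CPM + 1), adjusted p under 0.05), against 97.5% of the 489 genes tested. Their median change was -1.21, and that of all tested genes was -1.11. HIST2H2BE had a larger fall than most, with 14.7% of tested genes below it, and HIST1H2AC a smaller one, with 63.4% below it. With no filter on low values all 10 were called lower, against 97.3% of 771 genes. The rank of H2AFJ moved with the scale: 53.8% of tested genes fell further at a pseudocount of 1 CPM and 84.5% at a pseudocount of 0.1 CPM.

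When libraries were rescaled so that their listed CPM summed to the same total, the median of all tested genes moved to -0.06, and changes are then relative to that total. HIST2H2BE was then the only one of the 7 still called lower, at -0.53 ± 0.13 (limma, adjusted p = 0.009), against 24.1% of tested genes. H2AFJ turned to 0.38 ± 0.07 and was called higher (limma, adjusted p = 0.0011), against 8.79% of tested genes. HIST1H2AC turned to 0.11, and the other 4, at -0.28 to -0.09, were called neither way. A positive value here means that a gene's CPM fell less than the listed CPM as a whole.

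**Figure D4:**
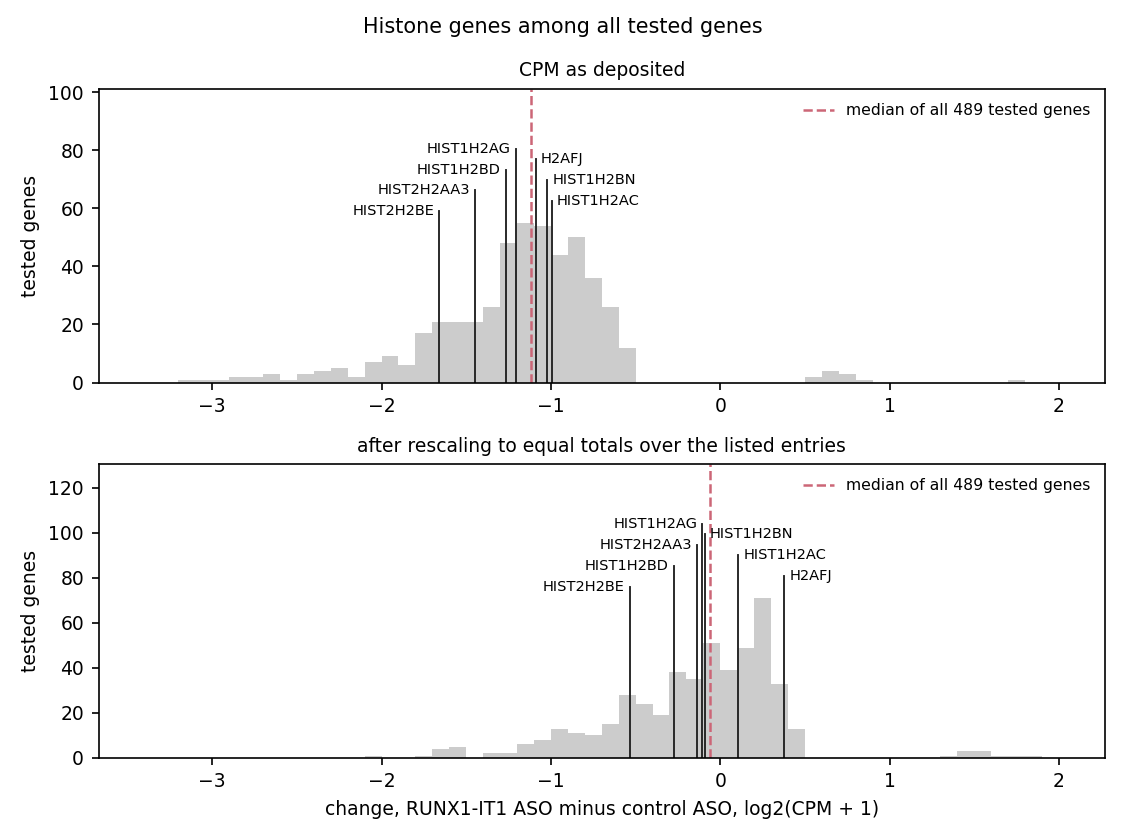
Changes of all 489 tested genes on the log2(CPM + 1) scale as grey bars, with the 7 tested histone genes marked, for CPM as deposited (top) and after rescaling to equal totals (bottom). The histone genes lie on both sides of the median, with HIST2H2BE on the left in both panels and H2AFJ at the right after rescaling.

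Ratios within a library do not depend on how CPM was scaled. H2AFJ made up 64.3, 64.2 and 62.4% of the summed CPM of the 10 genes in control ASO libraries and 72.5, 73.0 and 73.2% in RUNX1-IT1 ASO libraries, with no overlap. Relative to H2AFJ, 6 of the other 9 genes were lower under the RUNX1-IT1 ASO with no overlap between groups, against 50.3% of the other 770 named entries. HIST2H2BE stood at 10.1, 9.74 and 11.6 CPM per 100 CPM of H2AFJ in control ASO libraries and 5.75, 5.35 and 4.13 in RUNX1-IT1 ASO libraries. For HIST2H2AA3 the ratios were 18.8, 17.8 and 19.6 against 12.1, 13.9 and 12.7. The ratios of HIST1H2AC, HIST1H2AM and HIST1H2BN to H2AFJ overlapped between the groups. These ratios were chosen after their values were seen, and no p is given for them. H2AFJ had the smallest fold of the 10 genes, so its larger share and the lower mean ratios of the other 9 follow by arithmetic. Its fold of 2.16 was near the smallest of any entry, 1.99, and below the lower quartile of named entries, 2.45.

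Among the 10 listed genes, the H2B genes took a smaller share of the summed CPM in RUNX1-IT1 ASO libraries. H2A and H2B genes without an entry are missing from this sum, so it does not give the H2B share of all such transcripts. The listed genes appear to have been selected on these same samples, so the share only compares the sizes of their falls. The share was 14.2, 14.5 and 15.5% in control ASO libraries and 9.96, 9.47 and 8.56% in RUNX1-IT1 ASO libraries, a difference of -5.40 percentage points between the means. Without H2AFJ, which dominates the sum, the share was 39.7, 40.5 and 41.3% against 36.3, 35.1 and 31.9%, again with no overlap. HIST2H2BE, with a control ASO mean of 7.28 CPM and a fold of 4.51, weighs most among the H2B genes. The share was not computed without HIST2H2BE, so a shift of H2B genes as a group is not shown. For the HIST2 genes alone, HIST2H2BE stood at 53.8, 54.7 and 59.3 CPM per 100 CPM of HIST2H2AA3 in control ASO libraries and 47.7, 38.4 and 32.4 in RUNX1-IT1 ASO libraries. In the HIST1 cluster the ratios of the chosen pairs below overlapped between groups. The ratio of all listed H2B to all listed H2A genes was not computed by cluster, so a difference between the clusters is not shown. HIST1H2BD stood at 94.1, 84.0 and 92.1 CPM per 100 CPM of HIST1H2AC in control ASO libraries and 66.7, 86.2 and 40.6 in RUNX1-IT1 ASO libraries. For the divergent genes HIST1H2BJ and HIST1H2AG the ratio was 13.5, 13.6 and 20.9 per 100 against 14.8, 9.98 and 12.5 per 100.

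**Figure D5:**
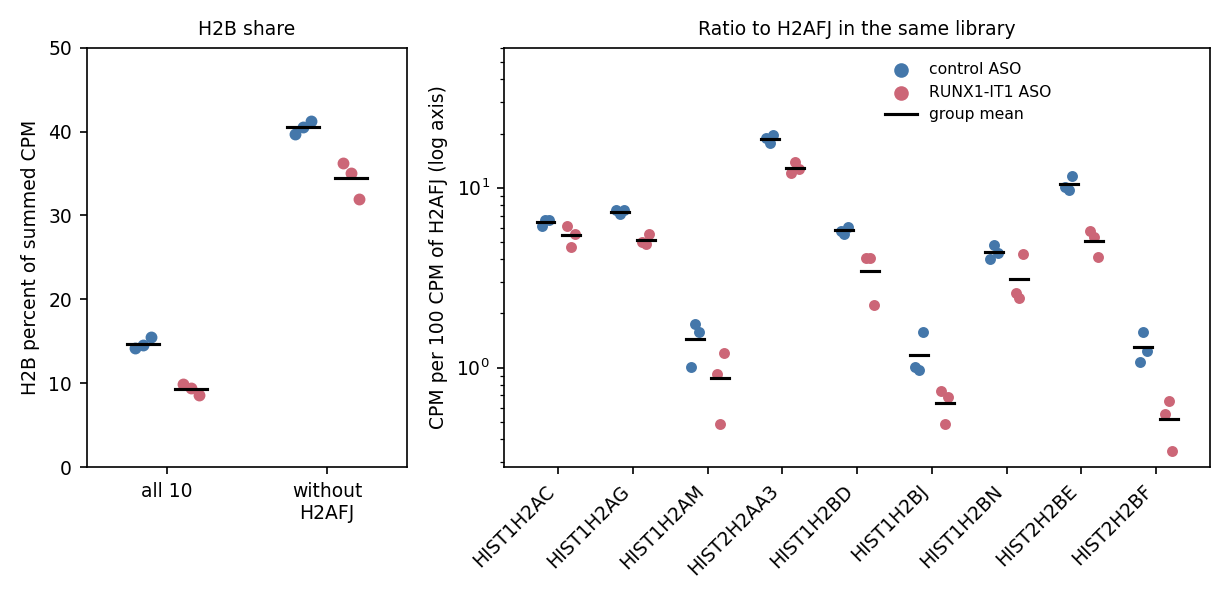
Left, H2B share of the summed H2A and H2B CPM in each library (percent), with all 10 genes and without H2AFJ. Right, each gene's CPM per 100 CPM of H2AFJ in the same library on a log axis, with bars at group means. Both shares are lower in every RUNX1-IT1 ASO library, and HIST1H2AC, HIST1H2AM and HIST1H2BN overlap between groups.

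By cluster, the 6 HIST1 genes summed to 17.6, 17.7 and 19.9 CPM in control ASO libraries and 5.62, 5.65 and 6.62 CPM in RUNX1-IT1 ASO libraries. The 3 HIST2 genes summed to 20.8, 19.2 and 23.4 CPM against 5.29, 6.61 and 5.86 CPM. The HIST2 share of both sums was 54.2, 52.1 and 54.0% in control ASO libraries and 48.5, 53.9 and 46.9% in RUNX1-IT1 ASO libraries, so the groups overlapped. Median changes of the tested genes were -1.55 for HIST2 (2 genes) and -1.11 for HIST1 (4 genes), a difference of -0.44. At a pseudocount of 0.1 CPM this difference was -0.30.

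The 4 genes best known for polyadenylated mRNA, H2AFJ, HIST1H2AC, HIST1H2BD and HIST2H2BE, had folds from 2.16 to 4.51. Over all 10 genes folds ran from 2.16 to 5.46. At least 3-fold lower were 2 of the 4 and all 6 of the others, with median folds of 3.11 and 3.35. The median change of the 4 genes was -1.18, and that of the other 3 tested genes was -1.21. With no filter on low values the other group had 6 genes and a median of -0.86, so the difference of 0.03 became -0.32. With all 10 genes at a pseudocount of 0.1 CPM it was 0.02, and leaving out RUNX1-IT1 ASO replicate 1 or 2 turned it to -0.01 or -0.03. The difference thus had no steady sign, and the value of -0.32 came with the pseudocount of 1 CPM, which compresses changes of genes under 1 CPM. The other 6 genes are not claimed to lack polyadenylated forms, since an annotated form ending near a hexamer exists for all of them but HIST1H2AM.

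Among 70 replication-dependent histone genes searched by symbol, 17 were listed. The share of all human genes that was listed was not computed, so these counts do not show whether histone genes are listed more or less often than others. Of the replication-dependent genes, 4 of 17 for H2A and 5 of 18 for H2B were listed, and none of 6 for linker histone H1. HIST2 supplied both of its H2B genes, and HIST1 3 of its 15. For H3 and H4, 2 of 14 and 6 of 15 were listed, with folds of 2.56 for HIST4H4 to 8.64 for HIST2H3C. HIST2H3C read 6.28, 2.09 and 2.64 CPM in control ASO libraries, and its fold without control ASO replicate 1 was 5.57. HIST4H4 starts 3252 bases from H2AFJ on the opposite strand. It stood at 2.69, 2.55 and 2.07 CPM in control ASO libraries and 1.18, 0.86 and 0.82 CPM in RUNX1-IT1 ASO libraries.

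None of 33 genes for histone transcription and mRNA processing, 20 histone chaperone genes or 22 S phase and proliferation genes was listed, so their levels were not analysed here. Of small RNAs without poly(A) tails 7 entries were listed, and for all 7 the RUNX1-IT1 ASO libraries lay below the controls with no overlap, as for 95.7% of named entries. They summed to 45.6 to 53.4 CPM in control ASO libraries and 11.9 to 13.6 CPM in RUNX1-IT1 ASO libraries. SNORD3A, the U3 small nucleolar RNA, went from 19.2 ± 1.08 to 4.40 ± 0.533 CPM, and RN7SK, which holds the elongation factor P-TEFb inactive, from 4.26 ± 0.930 to 1.10 ± 0.461 CPM. Their part in the histone results was not tested.

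The tested genes with profiles most like the mean profile of the 7 histone genes were LOC100129940, FCMR and DLX2. Likeness was the Euclidean distance over the 6 libraries between centred log2(CPM + 1) profiles, at 0.0812, 0.0953 and 0.1003. HIST1H2AG, the closest histone gene, was at 0.119, with 5 of the 489 genes nearer than it, and HIST2H2BE, the farthest, at 0.564, with 265 nearer. Nearly all tested genes share the same fall, so this order rests on small differences.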

How the data were processed

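RNA from 3 control ASO and 3 RUNX1-IT1 ASO libraries of ES2 cells was analysed. The 10 genes and all gene lists were chosen with earlier results of these data known. Per the submitters' processing notes, FastQC 0.11.9 and fastp 0.22.0 were used on GRCh38. For the aligner, counter, annotation, strand setting and gene filter, nothing is given in the sources used here. CPM, the unit of the tables as the authors deposited them, was inferred from their values. CPM values up to 15 lay within 0.1 step of whole multiples of 1 read in each library. The lowest control ASO values were 2 to 5 steps, and reads could not be recovered with certainty for a count test. Implied reads serve only for counting intervals (exact, scipy 1.17.1).

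Groups were compared with limma 3.58.1 (R 4.3.3, trended variance, no term but group) on log2(CPM + 1) for the 489 named genes whose mean reached 1 CPM. Adjusted p-values are Benjamini-Hochberg over all 489. The fit was also run on simulated data in which most genes were unchanged, unlike the listed genes. That run therefore lends no weight to the calls here. Named were all 10 genes, up to 3 genes of each fixed list, and the 3 genes with the nearest profiles. HIST2H4A, HIST2H4B and HIST4H4 were named after their values were seen. Sequences came from RefSeq (promoters, GRCh38.p14) and GENCODE release 29 (transcripts). Shared sequence was counted as 50-base stretches found in transcripts of another gene on either strand.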

Additional observations from a re-analysis of the deposited data

How the results depend on the processing

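Directions and calls of the 7 tested histone genes held in 80 of 86 alternative values. The other 6 came from rescaling to equal totals, where HIST1H2AG, HIST1H2BD, HIST1H2BN and HIST2H2AA3 lost their calls and H2AFJ (0.38) and HIST1H2AC (0.11) changed sign. Over all tested genes, 477 were called lower and 10 higher. With no filter on low values this was 750 and 19, at a mean of at least 5 CPM 165 and 0, after rescaling 118 and 43, and with entries without a symbol 20 were higher. The 5 CPM filter left 2 histone genes, both lower, and rescaling left 1 called lower. The HIST2 minus HIST1 difference of -0.44 was -0.30 at a pseudocount of 0.1 CPM, -0.24 after rescaling and -0.53 to -0.38 when each library was left out in turn. The difference between genes known for polyadenylated mRNA and the others was -0.32 with no filter, 0.02 with no filter at a pseudocount of 0.1 CPM (chosen after seeing the data), 0.36 at 5 CPM (H2AFJ against HIST2H2AA3 alone) and -0.03 to 0.13 with a library left out. Without HIST2H2AA3 the H2B share differed by -6.43 percentage points. With all 7 genes called in each case, leaving out a library gave 477 to 478 lower and 10 to 11 higher genes. With a replicate block 478 genes were lower and all 7 histone genes stayed called. Same-numbered libraries did not deviate together (correlations over 489 genes of -0.24, -0.10 and -0.02), so the numbers were not taken as pairing. The planned edgeR test was not run, because whole reads were not recovered. Depth limits HIST1H2AM, HIST1H2BJ and HIST2H2BF most, at 9 to 15 reads over the RUNX1-IT1 ASO group.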
